A study of Mus musculus with 24 samples.

Results

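The comparison described here is the last day of a control time course. Embryoid bodies on day 4 (EBd4 Dox, 3 libraries) were set against embryoid bodies on day 3 (EBd3 Dox, 3 libraries), 6 of the 24 RNA-seq libraries of the series. Its members are the 21384 of 35742 genes with a mean of at least 1 normalized count over the 6 libraries. The lowest mean inside that limit was 1.00044 (1700054A03Rik) and the highest outside it was 0.999906, and 14358 genes lay outside. Embryoid bodies are aggregates in which stem cells, no longer held by LIF, begin to differentiate. All cultures came from 1 line, V6.5 mouse embryonic stem cells that carry a degron on BRD2, a protein that binds acetylated chromatin, and all were given doxycycline (1 µg/ml for 18 h). As stem cells they were kept in 2i medium with serum and LIF, whose inhibitors CHIR99021 (3 µM, against GSK3, which turns on Wnt signalling) and PD0325901 (1 µM, against MEK, which turns off ERK signalling) act on pathways described below. The labels name the medium of the embryoid bodies only as one without LIF and do not say whether it held the inhibitors. The 6 libraries compared here received no auxin, so BRD2 was not targeted in them, but the tag and the doxycycline are present in both groups. The matching EBd3 IAA and EBd4 IAA libraries, which had the auxin indole-3-acetic acid (500 µM, 24 h) on top, are used only at the end. The labels do not say whether the libraries of a group came from separate cultures, so the p-values measure the spread between these libraries.

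In the mouse embryo, gastrulation starts when epiblast cells at one side form the primitive streak. Nodal, Wnt and BMP signals between the epiblast and its neighbours set the streak's place, and the T-box factors T (brachyury) and Eomes act in the cells that pass through it. Those cells become mesoderm and definitive endoderm, while the epiblast that stays behind loses its pluripotency genes and forms ectoderm. Embryoid bodies run through a loose version of this order, and the step from day 3 to day 4 falls where streak genes are usually first seen.

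The marker genes of pluripotent stem cells (Pou5f1, Sox2, Nanog, Sall4, Utf1 and Dppa4) were plainly present on both days, with summed levels of 15810.9 to 16113 normalized counts on day 3 and 15308 to 16173 on day 4. These similar sums hold opposite changes: mean Nanog went from 1843 to 4788 and Sall4 from 1461 to 1946. In the other direction Utf1 went from 3170 to 1749, Pou5f1 from 6932 to 5922, Dppa4 from 1377 to 556 and Sox2 from 1216 to 719. The 4 defining streak genes (T, Mixl1, Eomes and Gsc) went from 72.2 to 77.2 summed counts to 1273 to 3113. Markers of other cells were less abundant. Those of nascent mesoderm (Mesp1, Msgn1, Tbx6, Pdgfra and Kdr) summed to 56.7 to 81.0 on day 4. Those of neuroectoderm (Sox1, Pax6 and Hes5) summed to 147 to 193, where day 3 had 309.7 to 325. For blood and endothelium (Tal1, Etv2, Gata1, Cdh5 and Pecam1) the sum was 80.2 to 99.5, where day 3 had 251 to 274. Most of that drop was in Pecam1 (mean 182 to 48.2), which was at 1818 in the stem cells (mES Dox). Etv2 went from 47.2 to 18.9 and Tal1 from 23.2 to 17.2. Gata1 (4.02 to 3.36) and Cdh5 (4.46 to 4.21) hardly moved. Of the definitive endoderm markers Foxa2 was high while Sox17 and Cxcr4 had means of 1.67 and 7.55 on day 4, below the 5.13 and 12.9 of day 3. Afp and Ttr (visceral endoderm), Lum (fibroblasts) and Elf5 (trophoblast) were at 0 in the EBd4 Dox libraries. Other markers were read there, with day-4 means of 13.9 for Amn and 1.26 for Apoa1 (visceral endoderm). Among fibroblast markers, Thy1 had a mean of 259, Col1a1 14.7 and Dcn 4.59. The trophoblast markers Prl3d1 and Tpbpa had no values, so Elf5 alone stands for that cell type. These are bulk samples, in which fewer cells of a type and less RNA per cell cannot be told apart.

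Every EBd3 Dox library was deeper (8353587 to 9371177 reads) than every EBd4 Dox library (7941180 to 8120480), and more genes were detected on day 3 (23138 to 23446) than on day 4 (22045 to 22372). Mitochondrial RNA was 1.14% to 1.19% of reads on day 3 and 1.19% to 1.29% on day 4. The share of the 10 highest genes was 3.50% to 3.65% and 3.92% to 4.00%. Pairs of libraries within a day were further apart than counting error, at a chi-square value per degree of freedom of 1.25 to 1.71 (day 3) or 1.65 to 2.48 (day 4). The 3 day-4 libraries were not at the same point for every gene group. EBd4 Dox 3 was the lowest of the day-4 libraries for 15 of 16 streak genes, and EBd4 Dox 1 the lowest for 27 of 28 hypoxia and glycolysis genes. On day 3, EBd3 Dox 1 was the lowest for 19 of 22 p53 targets. The results that rest on these libraries are given with and without them.

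Between the days 7072 of 21384 genes changed (33.1% called, limma on log2 values, adjusted p below 0.05), 3589 of them upward (16.8%) and 3483 downward (16.3%). Rises of at least 2-fold were called for 633 genes (2.96%) and falls of at least 2-fold for 1037 (4.85%). The libraries of the 2 days did not overlap for 9496 genes (44.4%). Among the 9714 genes with a mean of at least 100, 28.0% rose and 23.0% fell, so abundant genes were called more often. The median log2 fold change of all tested genes was -0.01. A count of risen or fallen members of a list below is to be read against these shares. Counts of up to 5 members often moved by 1 or 2 when a library was left out, and larger shifts of several lists are given. "Rose" and "fell" mean past the adjusted p of 0.05, and changes are log2 fold changes of day 4 over day 3 ± SE on the log2(normalized count + 1) scale, which understates the change of low genes. Levels with ± are means with the SD of 3 libraries (n = 3). Positions are on mm10 from GENCODE M21.

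**Figure D1:**
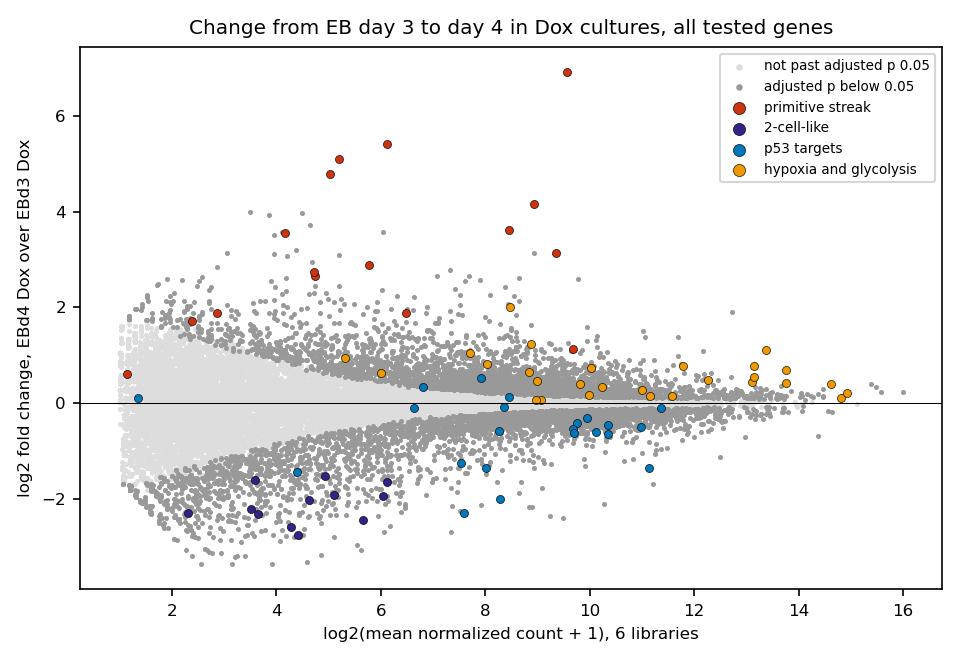
Log2 fold change of EBd4 Dox over EBd3 Dox (y axis) against the log2 of the mean normalized count plus 1 over the 6 libraries (x axis) for the 21384 tested genes. Grey points are genes, darker where the adjusted p is below 0.05, and coloured points are members of 4 lists: streak genes lie highest, 2-cell-like genes and several p53 targets lie below 0, and hypoxia and glycolysis genes lie to the right, above 0.

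Of 16 tested primitive streak genes, 15 rose and none fell (16.8% of all genes rose), with a median log2 fold change of 3.01. The largest rise of the whole comparison was that of T (ENSMUSG00000062327, chromosome 17, 8434423 to 8442496), the founding T-box gene, which streak cells need to form mesoderm. T was at 14.2, 6.39 and 12.7 normalized counts in the EBd3 Dox libraries and at 2091, 1602 and 826 in the EBd4 Dox libraries (log2 fold change 6.92 ± 0.25, adjusted p = 1.72e-15). Its day-4 libraries differ widely among themselves, with EBd4 Dox 3 far below the other 2, yet each lies far above day 3. Eomes (ENSMUSG00000032446, chromosome 9, 118478212 to 118486132), the T-box factor needed for endoderm and for cells to leave the epiblast, was at 53.4, 46.8 and 49.9 and then at 862, 718 and 385 (3.61 ± 0.18, adjusted p = 5.46e-13). Mixl1, a homeobox gene of streak mesoderm and endoderm, went from 8.31, 18.1 and 8.49 to 125, 121 and 42.8 (2.88 ± 0.34, adjusted p = 5.18e-07). All 3 were lowest in EBd4 Dox 3, and their groups do not overlap.

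Genes of the anterior end of the streak rose with those of its posterior end. Foxa2 (ENSMUSG00000037025, chromosome 2, 148042877 to 148046969), a forkhead factor of anterior streak, node and endoderm, went from 2.37, 3.19 and 1.06 to 152, 167 and 85.6 (5.41 ± 0.33, adjusted p = 1.67e-11). Gsc, the organizer homeobox gene, rose by 3.56 ± 0.43 and Lhx1, a LIM homeobox gene of the same region, by 2.65 ± 0.37. Evx1 (ENSMUSG00000005503, chromosome 6, 52313498 to 52318378), a homeobox gene of the posterior streak, went from 2.37, 1.06 and 0 to 90.4, 88.5 and 32.7 (5.09 ± 0.46, adjusted p = 1.08e-08). Sp5 (ENSMUSG00000075304, chromosome 2, 70474923 to 70477729), a zinc finger factor gene, went from 0, 2.13 and 2.12 to 86.6, 66.0 and 34.0 (4.79 ± 0.46, adjusted p = 2.26e-08). Foxa2, Evx1 and Sp5 were thus at or near 0 on day 3 and clear on day 4 in each library. Nkx1-2, expressed in the caudal epiblast, rose from 6.15 ± 2.47 to 44.5 ± 4.06 (2.73 ± 0.32). The caudal genes Cdx1 and Cdx2 were read at low levels, from 1.77 ± 2.21 to 6.70 ± 3.11 and from 2.13 ± 2.13 to 10.5 ± 7.68. Both were called (1.72 ± 0.61 and 1.87 ± 0.64), but the call of Cdx1 was lost without EBd3 Dox 1, EBd3 Dox 2, EBd4 Dox 1 or EBd4 Dox 2, and that of Cdx2 without EBd3 Dox 1, EBd3 Dox 3, EBd4 Dox 1 or EBd4 Dox 2, and each by DESeq2 (Cdx1 by edgeR too, and Cdx2 in a fit of all 24 libraries).

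Streak ligands changed with the factors. Fgf8 (ENSMUSG00000025219, chromosome 19, 45736798 to 45742915), which cells need to move away from the streak, went from 54.6, 46.8 and 49.9 to 1049, 1067 and 681 (4.15 ± 0.13, adjusted p = 3.90e-16). Wnt8a (ENSMUSG00000012282, chromosome 18, 34542313 to 34548273), a Wnt of the posterior epiblast, went from 123, 135 and 136 to 1361, 1296 and 891 (3.14 ± 0.11, adjusted p = 1.14e-15). Wnt3, without which no streak forms, went from 27.3, 36.2 and 47.8 to 181, 141 and 98.2 (1.88 ± 0.21, adjusted p = 2.06e-07). Wnt8a and Wnt3 were already read on day 3, in contrast to Foxa2 and Evx1. Nodal rose from 512 ± 23.2 to 1122 ± 114 (1.13 ± 0.07). Wnt3a was the streak gene not called, at 0, 2.13 and 0 on day 3 and 1.27, 0 and 3.78 on day 4 (0.60 ± 0.74, adjusted p = 0.587), which is too few reads to show a difference. Per kilobase of exon, Fgf8, Wnt8a and T had the highest day-4 levels of those given here, at 691, 677 and 651 normalized counts per kb, which do not differ beyond the spread of T. Eomes came next at 158 per kb, followed by Foxa2 at 56.8, Mixl1 at 41.9 and Evx1 at 24.5.

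The summed level of the 16 streak genes was 803, 811 and 867 normalized counts in the 3 EBd3 Dox libraries and 7403, 6544 and 4179.7 in EBd4 Dox 1, 2 and 3. Without EBd4 Dox 3, 15 streak genes rose, and the list's median was 3.38. Cdx1 and Cdx2 were the streak genes whose fold change moved by over 1.5-fold when 1 library was left out. Cdx2 was at 2.58 without EBd4 Dox 3 and at 1.20 without EBd3 Dox 1, and Cdx1 at 2.34 without EBd3 Dox 3.

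**Figure D2:**
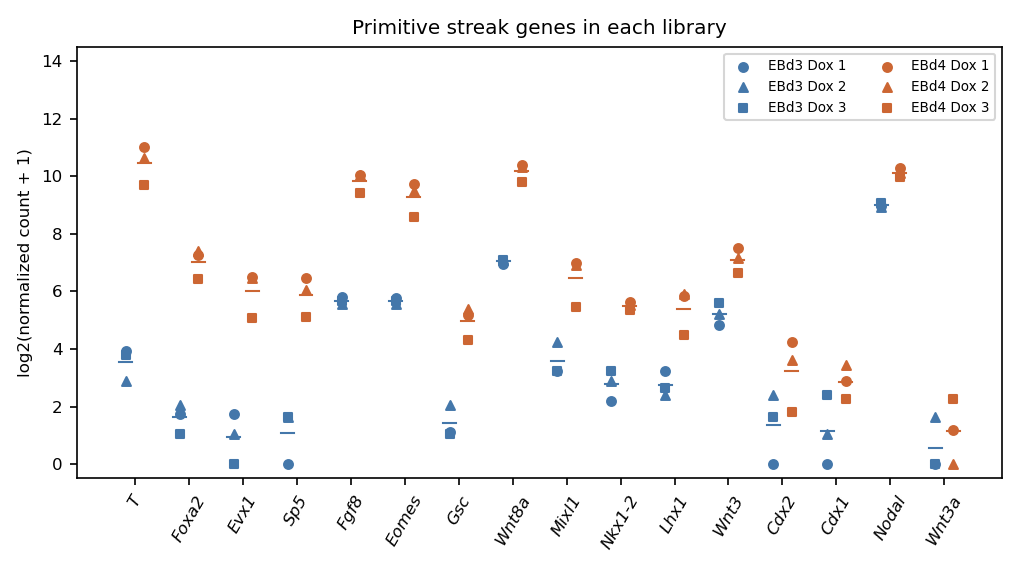
Log2 of the normalized count plus 1 (y axis) of the 16 primitive streak genes (x axis) in each EBd3 Dox (blue) and EBd4 Dox (orange) library, with circle, triangle and square for replicates 1, 2 and 3 and a line at the mean of the log2 values. The orange squares (EBd4 Dox 3) are the lowest of the day-4 libraries for 15 of 16 genes, and the days overlap for a few of the low genes such as Wnt3a.

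Promoters of a pair of the risen streak genes are shown for the letters that TCF and LEF factors, the nuclear end of Wnt signalling, are known to bind. They are the 250 bases before the gene start, from RefSeq on GRCm38.p6, with each match to CTTTGA or its reverse TCAAAG in capitals. In T the match begins 234 bases before the start, and in Sp5, itself a Wnt target, 204 and 104 bases before it.

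T, chr17:8434173-8434422 (+ strand): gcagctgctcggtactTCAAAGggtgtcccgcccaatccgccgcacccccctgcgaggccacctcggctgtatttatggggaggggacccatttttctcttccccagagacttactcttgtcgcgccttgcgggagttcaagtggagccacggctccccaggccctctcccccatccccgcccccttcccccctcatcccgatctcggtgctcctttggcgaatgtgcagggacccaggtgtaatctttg

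Sp5, chr2:70474673-70474922 (+ strand): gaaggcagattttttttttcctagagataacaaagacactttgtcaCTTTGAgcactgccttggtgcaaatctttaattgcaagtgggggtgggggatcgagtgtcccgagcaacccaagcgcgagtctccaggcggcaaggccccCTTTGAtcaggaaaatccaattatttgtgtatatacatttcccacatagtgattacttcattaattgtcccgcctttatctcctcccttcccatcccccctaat

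Of the 16 streak genes 12 had a promoter entry, 14 promoters in all, and 2 of these 14 (14.3%) held the letters, where 13.8% of all 32851 promoters of the same length did. Among Wnt targets it was 5 of 21 promoters (23.8%), those of Dkk1, Lef1, Sp5, Sp8 and T, and among genes risen at least 2-fold 56 of 448 (12.5%). A match is a run of letters and not a measured site.

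Of 27 genes for Wnt ligands and their receptors 14 rose and 3 fell (median 0.43). Apart from Wnt3 and Wnt8a these include the ligand genes Wnt5b (from 29.0 ± 4.25 to 116 ± 15.2, 1.96 ± 0.18), Wnt11 (from 7.999 ± 3.19 to 42.9 ± 12.8, 2.30 ± 0.32) and Wnt4 (1.86 ± 0.37). Porcn, whose enzyme adds the lipid Wnt proteins need for secretion, went from 147, 152 and 136 to 298, 356 and 306 (1.13 ± 0.10, adjusted p = 3.28e-09). The receptor gene Fzd10 went from 41.6, 70.3 and 79.6 to 354, 305 and 249 (2.27 ± 0.17, adjusted p = 6.34e-10), and Ror2, a receptor for Wnt5a, rose by 1.27 ± 0.15. In the opposite direction, the receptor gene Fzd7 fell from 2273 ± 105 to 1542 ± 27.7 (-0.56 ± 0.04) and Lgr4, a receptor for R-spondins, fell by 0.43 ± 0.05, while Rspo3, an R-spondin gene, rose by 2.13 ± 0.43. Fzd5 was the third to fall (-0.21 ± 0.07), a call lost by DESeq2 and without EBd3 Dox 2, EBd3 Dox 3 or EBd4 Dox 2.

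Of 21 Wnt targets and feedback genes 10 rose and 1 fell (median 0.45, or 0.33 with Dkk1, which had no read on day 3, set to the bound that 3 reads per library allow). T, Sp5, Cdx1 and Cdx2, which both lists hold, are 4 of the 10. Axin2 (ENSMUSG00000000142, chromosome 11, 108920349 to 108950783), the feedback inhibitor most often read as a sign of Wnt activity, went from 158, 161 and 181 to 699, 613 and 495 (1.84 ± 0.10, adjusted p = 2.60e-12). Sp8, a zinc finger factor of the Sp family, went from 54.6, 57.5 and 56.2 to 405, 326 and 276 (2.54 ± 0.13, adjusted p = 6.30e-13), and Nkd1, another inhibitor, rose by 1.20 ± 0.16. The other 10 members were not called. The count of 10 became 6 with DESeq2 and 6 without EBd4 Dox 2.

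On the Nodal side 9 of 19 genes rose and 4 fell. The ligand gene Nodal and its co-receptor Tdgf1 (from 8114 ± 148 to 10311 ± 834, 0.34 ± 0.04) rose, as did the receptor genes Acvr1b (0.26 ± 0.07), Acvr2a (0.32 ± 0.08) and Acvr2b (0.40 ± 0.07) and the signal carrier Smad3 (from 234 ± 10.5 to 501 ± 50.2, 1.09 ± 0.08). The feedback inhibitors went the other way: Lefty1 fell from 2939.8 ± 295 to 2299 ± 277 (-0.36 ± 0.07) and Lefty2 from 673 ± 49.7 to 479 ± 34.3 (-0.49 ± 0.07). Gdf3, a related ligand gene of pluripotent cells, fell by 1.23 ± 0.07. The other 6 genes of the list were not called.

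For BMP, 12 of 21 genes rose and none fell (median 0.45, or 0.39 with Nog, which had no read on day 3, at its bound). Fst (ENSMUSG00000021765, chromosome 13, 114452290 to 114458951), a secreted inhibitor of activins and BMPs, went from 57.0, 118 and 118 to 1271, 896 and 489.7 (3.14 ± 0.24, adjusted p = 6.17e-10). Bmp7 went from 23.7, 33.0 and 24.4 to 129, 127 and 135 (2.24 ± 0.17, adjusted p = 7.73e-10), and the inhibitor gene Chrd rose by 0.99 ± 0.22. Among response genes Msx1 (1.39 ± 0.17), Id3 (0.62 ± 0.10) and Smad6 (0.82 ± 0.17) rose, whereas Id2 was not called (-0.18, adjusted p = 0.209). Id1 overlapped between the days, at 268, 269 and 280 on day 3 and 247, 308 and 240 on day 4. Both ligand and inhibitor genes therefore rose.

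FGF genes exchanged places: of 26 FGF and ERK genes 11 rose and 9 fell. Fgf4 (ENSMUSG00000050917, chromosome 7, 144847367 to 144865243), the FGF of the inner cell mass, went from 2036, 2011 and 2001 to 399, 459 and 550.2 (-2.11 ± 0.08, adjusted p = 1.72e-15), while Fgf8, above, rose, and so did Fgf17 (from 20.4 ± 3.94 to 84.8 ± 6.47, 2.01 ± 0.20) and Fgf10 (from 2.25 ± 1.25 to 26.8 ± 8.69, 3.12 ± 0.43). Fgf5, the marker of primed epiblast, went from 686, 708 and 695 to 1252, 1145 and 1123 (0.75 ± 0.05, adjusted p = 2.66e-10). The receptor gene Fgfr1 rose (0.58 ± 0.05), and Fgfr2 (-0.64 ± 0.16) and Fgfr4 (-1.68 ± 0.37) fell. The ERK-induced genes did not move as one: Fos (1.38 ± 0.22) and Egr1 (0.94 ± 0.08) rose, and Spry4 (-0.74 ± 0.10) and Etv4 (-0.77 ± 0.12) fell.

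Of 14 naive pluripotency genes 9 fell and 2 rose (median -0.66). Falls were largest for Fgf4, for Nr0b1 (from 83.0 ± 9.50 to 19.7 ± 5.32, -2.05 ± 0.22), an orphan nuclear receptor gene, for Fbxo15 (from 269 ± 22.0 to 84.7 ± 7.94, -1.66 ± 0.11), an early Oct4 target, and for Zfp42 (Rex1), which went from 619.8, 601 and 542 to 253, 249 and 273 (-1.18 ± 0.07, adjusted p = 2.52e-11). Nanog went against the list. It was at 2121, 1652 and 1756 on day 3 and at 4909, 4753 and 4702 on day 4 (1.39 ± 0.06, adjusted p = 3.58e-14), with narrow groups far apart. Tbx3, which supports self-renewal and is also expressed in early mesoderm and endoderm, rose from 33.2, 44.7 and 59.4 to 98.1, 84.7 and 85.6 (0.99 ± 0.19, adjusted p = 0.000238). Esrrb was not called (-0.05, adjusted p = 0.789).

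Of 15 core and general pluripotency genes 10 fell and 3 rose (median -0.24). Pou5f1 (Oct4) moved little, from 6932 ± 158 to 5922 ± 344 (-0.23 ± 0.04), and Sox2 more, from 1216 ± 47.7 to 719 ± 17.8 (-0.76 ± 0.05). Dppa2 (ENSMUSG00000072419, chromosome 16, 48303908 to 48319723), which with Dppa4 keeps early genes open to activation, went from 710, 798 and 823 to 187, 177 and 154 (-2.17 ± 0.08, adjusted p = 6.22e-15), and Dppa4 fell by 1.31 ± 0.05. Utf1 fell by 0.86 ± 0.05. Sall4 (0.41 ± 0.05) and Tdgf1 were among those that rose. Oct4 RNA was thus kept at 0.854 of its day-3 mean, and Dppa2 RNA at 0.222.

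Genes of the formative and primed epiblast divided, 7 up and 6 down of 17 (median 0.09). Otx2 rose from 1388 ± 80.9 to 2259 ± 311 (0.69 ± 0.07), while Pou3f1 (Oct6) fell from 1616 ± 92.3 to 932 ± 57.5 (-0.79 ± 0.05) and Tcf15 from 179 ± 7.93 to 78.4 ± 16.8 (-1.20 ± 0.14). The de novo DNA methyltransferase genes fell together. Dnmt3a went from 7805, 8273 and 7548 to 3623, 3576 and 3657 (-1.12 ± 0.04, adjusted p = 3.90e-16), Dnmt3b fell by 0.69 ± 0.03, and Dnmt3l, their catalytically inactive partner, went from 800.2, 866 and 844 to 261, 229 and 247 (-1.77 ± 0.07, adjusted p = 9.97e-15). Tet1 fell (-0.44 ± 0.04) and Tet2 rose (0.56 ± 0.10). Of the 15 genes of DNA methylation and its removal 3 rose and 6 fell.

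All 12 tested genes of the 2-cell-like list fell (median -2.12, with 16.3% of all genes fallen). These genes belong to the programme of the 2-cell embryo, which a few stem cells in a culture enter for a time. Their summed level was 524, 569 and 584 normalized counts on day 3 and 115, 147 and 137 on day 4. Zscan4c (ENSMUSG00000054272, chromosome 7, 11005745 to 11010547), a zinc finger gene of the Zscan4 cluster, went from 84.3, 116 and 111 to 21.6, 29.9 and 27.7 (-1.93 ± 0.19, adjusted p = 3.92e-08), and Zscan4a from 87.9, 78.8 and 88.1 to 14.01, 15.0 and 15.1 (-2.45 ± 0.21, adjusted p = 3.62e-09). The 5 Zscan4 copies and the 2 Tcstv copies tested are nearly identical in sequence, so reads may be divided among them and the 12 are not independent counts. Outside the clusters Zfp352 fell from 17.1 ± 2.57 to 5.03 ± 1.24 (-1.60 ± 0.38) and Tmem92 from 17.4 ± 4.93 to 3.34 ± 2.58 (-2.21 ± 0.46).

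Germline genes fell with them, 12 of 17 down and 1 up (median -0.92). Among these are known targets of promoter DNA methylation that pluripotent cells express at low levels. Dazl, an RNA-binding protein gene of germ cells, went from 57.0, 55.4 and 56.2 to 25.5, 21.2 and 20.1 (-1.30 ± 0.21, adjusted p = 3.70e-05), and Mael, of the piRNA pathway, from 199, 198 and 198 to 76.4, 71.0 and 54.1 (-1.56 ± 0.13, adjusted p = 3.52e-09). The meiosis genes Stra8 (from 19.13 ± 4.90 to 2.95 ± 1.96, -2.44 ± 0.44), Tex11 (from 73.8 ± 10.4 to 16.4 ± 6.35, -2.16 ± 0.26) and Sycp3 (from 195 ± 20.1 to 95.7 ± 10.9, -1.02 ± 0.12) fell, as did Taf7l (-2.08 ± 0.26), Ddx4 (-0.78 ± 0.08) and Dmrt1 (-1.001 ± 0.11). Rec8, the meiotic cohesin gene, rose by 0.23 ± 0.07, a call lost by DESeq2 and without EBd3 Dox 3 or EBd4 Dox 2. Tex19.1, a germline gene outside the list that was among the 15 largest falls, went from 300.4, 309.7 and 292 to 52.2, 73.5 and 62.9 (-2.25 ± 0.12, adjusted p = 2.80e-12).

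Of 22 p53 targets 16 fell and 1 rose (median -0.52). Cdkn1a (ENSMUSG00000023067, chromosome 17, 29090976 to 29100727), which codes for the cell cycle inhibitor p21, went from 359, 541 and 599 to 119.7, 106 and 138 (-2.01 ± 0.13, adjusted p = 8.39e-11). Plk2 (ENSMUSG00000021701, chromosome 13, 110395046 to 110400844), a stress-induced kinase gene, went from 204, 352 and 409 to 66.2, 61.1 and 59.2 (-2.30 ± 0.17, adjusted p = 3.50e-10), and Ccng1 from 2603, 3269.9 and 3829 to 1354, 1105 and 1273 (-1.36 ± 0.09, adjusted p = 3.69e-11). The groups do not overlap for any of the 3, and on day 3 EBd3 Dox 1 lay lowest for each of them. Eda2r (-1.36 ± 0.10), Phlda3 (-1.26 ± 0.14) and Mdm2, the p53 ubiquitin ligase gene (-0.54 ± 0.06), fell as well, and Sesn1 rose (0.51 ± 0.09). The summed level of the list was 17813, 19960 and 21575 on day 3 and 13557, 12871 and 13408 on day 4. Without EBd3 Dox 1, 15 members fell.

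Of 14 apoptosis regulator genes 8 fell and none rose, among them the death-promoting Bbc3 (Puma, -0.58 ± 0.09), Bax (-0.31 ± 0.05) and Hrk (-0.66 ± 0.14) and the survival gene Mcl1, which went from 5377, 5297 and 5301 to 3504, 4057 and 4207 (-0.45 ± 0.05, adjusted p = 1.07e-07). Bbc3, Bax and Pmaip1 are also in the p53 list. Of 30 cell cycle genes 10 rose and 9 fell, and the 9 became 5 without EBd3 Dox 3. Cyclin genes changed places: Ccnd2 went from 58.2, 72.4 and 50.9 to 223, 237 and 137 (1.68 ± 0.17, adjusted p = 6.75e-08) and Ccnd3 rose by 0.94 ± 0.06, while Ccne1 fell by 0.56 ± 0.06. The inhibitor gene Cdkn1b (p27) rose by 0.57 ± 0.05, in the opposite direction to Cdkn1a. Mki67, a gene of dividing cells, rose from 4686 ± 278 to 6517 ± 196 (0.48 ± 0.04).

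**Figure D3:**
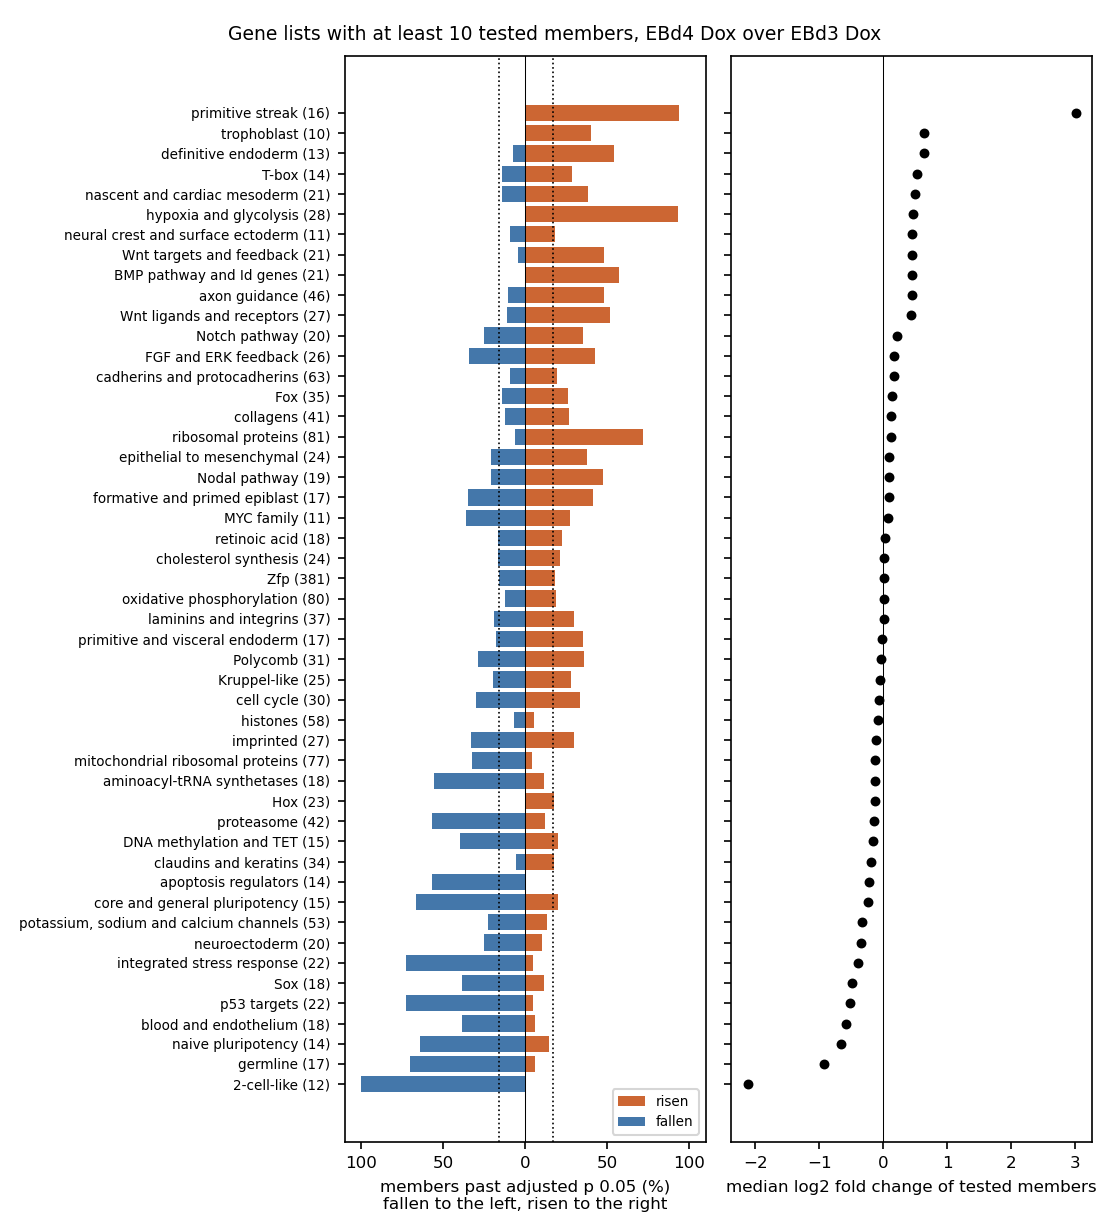
Share of tested members that rose (orange, to the right) or fell (blue, to the left) past an adjusted p of 0.05 in each list with at least 10 tested members (number in brackets), beside the median log2 fold change of the tested members of each list. Dotted lines mark the 16.8% risen and 16.3% fallen among all genes, and the lists run from primitive streak at the top to 2-cell-like at the bottom in order of their median.

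Genes of glycolysis and of the response to low oxygen rose: 26 of 28 members and none fell (median 0.47), where 28.0% of genes with a mean of at least 100 rose. The hypoxia factor HIF is known to drive many of these genes. Slc2a3 (ENSMUSG00000003153, chromosome 6, 122727809 to 122801640), the glucose transporter GLUT3, went from 7855, 5893 and 6350.3 to 11475, 15858 and 16396 (1.11 ± 0.09, adjusted p = 2.27e-09). Ndrg1 (ENSMUSG00000005125, chromosome 15, 66929318 to 66969640), often used as a marker of low oxygen, went from 194, 113 and 119.9 to 462, 677 and 563 (2.02 ± 0.15, adjusted p = 2.95e-10). P4ha1, which codes for a subunit of the collagen prolyl hydroxylase, went from 318, 247 and 267 to 512, 735 and 743 (1.24 ± 0.11, adjusted p = 6.81e-09). All 3 were lowest of day 4 in EBd4 Dox 1 and still did not overlap with day 3.

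The enzymes along the pathway rose by smaller amounts: Slc2a1 (GLUT1) by 0.77 ± 0.08, Hk1 by 0.64 ± 0.08, Pfkl by 0.77 ± 0.06, Aldoa by 0.68 ± 0.06, Tpi1 by 0.47 ± 0.05, Pgk1 by 0.55 ± 0.07, Eno1 by 0.40 ± 0.03 and Ldha by 0.42 ± 0.05. Vegfa (0.47 ± 0.07) and Bnip3 (0.40 ± 0.08) rose too, while Egln3 (0.07, adjusted p = 0.69) and P4ha2 (0.06, adjusted p = 0.59) were not called, although Egln3 was past the threshold without EBd4 Dox 1 (0.28). The list summed to 154585, 145285 and 146632 normalized counts on day 3 and 179185, 215557 and 203260 on day 4. Without EBd4 Dox 1, 27 members rose, with a median of 0.54. The count was 22 without EBd3 Dox 1 or EBd4 Dox 2, and 23 without EBd3 Dox 2, EBd3 Dox 3 or EBd4 Dox 3. In a fit of all 24 libraries it was 22.

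Promoters of a pair of these enzyme genes are shown with the core of the hypoxia response element, ACGTG or GCGTG and their reverses CACGT and CACGC, in capitals, again as the 250 bases before the start in RefSeq on GRCm38.p6. Pgk1 holds 2 matches, 150 and 131 bases before the start. Ldha holds 5, of which 4 overlap in pairs as CACGTG, letters that are also those of an E-box.

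Pgk1, chrX:106186850-106187099 (+ strand): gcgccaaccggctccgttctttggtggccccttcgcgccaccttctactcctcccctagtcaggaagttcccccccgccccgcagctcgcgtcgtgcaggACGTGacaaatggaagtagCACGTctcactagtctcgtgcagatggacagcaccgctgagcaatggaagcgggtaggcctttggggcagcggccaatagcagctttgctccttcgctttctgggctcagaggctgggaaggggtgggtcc

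Ldha, chr7:46845554-46845803 (+ strand): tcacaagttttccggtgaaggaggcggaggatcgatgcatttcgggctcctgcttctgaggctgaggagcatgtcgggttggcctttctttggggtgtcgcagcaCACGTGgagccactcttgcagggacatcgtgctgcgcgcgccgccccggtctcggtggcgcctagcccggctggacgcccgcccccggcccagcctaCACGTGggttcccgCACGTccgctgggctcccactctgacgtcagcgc

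Of 38 promoters found for 25 members of the list, 29 (76.3%) held the letters, where 38.6% of all promoters and 58.9% of those of genes with a mean of at least 100 did. Among genes risen at least 2-fold it was 42.4%, and among those fallen at least 2-fold 40.7%. The letters are short and their share rises with the level of the genes.

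Genes of the integrated stress response, through which ATF4 raises amino acid supply, fell: 16 of 22 fell and 1 rose (median -0.39). Slc7a11 (ENSMUSG00000027737, chromosome 3, 49892526 to 50443614), the cystine transporter gene, went from 91.4, 79.8 and 75.3 to 8.91, 8.72 and 11.3 (-2.97 ± 0.24, adjusted p = 1.26e-09). Atf4 itself fell from 2725 ± 34.2 to 2117 ± 105 (-0.37 ± 0.04) and Atf5 from 664 ± 48.6 to 373 ± 62.7 (-0.84 ± 0.09). The amino acid transporter genes Slc7a3 (-0.98 ± 0.05) and Slc7a5 (-0.70 ± 0.05), the serine synthesis genes Psat1 (-0.59 ± 0.04) and Psph (-0.86 ± 0.06), and Chac1 (-0.75 ± 0.11) fell. Ddit3 (CHOP) was not called (-0.05, adjusted p = 0.752). Of 18 aminoacyl-tRNA synthetase genes, many of them ATF4 targets, 10 fell and 2 rose, with Lars at -0.54 ± 0.04 and Aars at -0.36 ± 0.03. Nupr1, a stress-induced gene among the 15 largest falls, went from 152, 146 and 114 to 31.8, 21.2 and 30.2 (-2.27 ± 0.18, adjusted p = 1.71e-09).

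Among other housekeeping groups the medians were small. Of 81 ribosomal protein genes 58 rose and 5 fell (median 0.12), with Rpl3 at 0.21 ± 0.03. The 5 that fell include Rpl10l, a copy of Rpl10 made by retrotransposition, and Rps4l, at -1.80 ± 0.19 and -0.49 ± 0.05. Proteasome genes went down, 24 of 42 fallen and 5 risen (median -0.15), but those that rose include the interferon-induced forms Psmb8 (from 102 ± 23.5 to 244 ± 37.3, 1.27 ± 0.14), Psme1 (0.47 ± 0.05) and Psme2 (0.48 ± 0.05). Of 77 mitochondrial ribosomal protein genes 25 fell and 3 rose, and the 25 became 16 without EBd3 Dox 3, where 23.0% of genes with a mean of at least 100 fell. Of 80 oxidative phosphorylation genes 15 rose and 10 fell (median 0.01). With TMM scaling 57 and with scaling to total reads 50 ribosomal protein genes rose. With 1 library left out the count ran from 45 (without EBd3 Dox 2) to 60 (without EBd4 Dox 1). Reads of these genes may be shared with their many processed pseudogenes.

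Mesoderm beyond the streak was faint. Of 21 genes of nascent and cardiac mesoderm 8 rose and 3 fell, but Mesp1, the first gene of migrating mesoderm, reached only 5.03 ± 2.48 normalized counts, from 0.396 ± 0.685. Its call was lost without EBd4 Dox 2 (1.83, adjusted p = 0.064). Twist1 rose from 89.5 ± 9.54 to 176 ± 1.54 (0.97 ± 0.12), and the other 10 members were not called. The count of 8 became 4 without EBd4 Dox 1, and likewise 4 without EBd3 Dox 1 and 4 without EBd4 Dox 2. Among definitive endoderm genes 7 of 13 rose and 1 fell. Beside Foxa2 and Gsc, the hormone gene Trh went from 3238, 2430.1 and 2953 to 11089.9, 11074 and 9884 (1.90 ± 0.06, adjusted p = 1.01e-15), and the keratin genes Krt8 (0.70 ± 0.05) and Krt18 (0.64 ± 0.10) rose, though none of these 3 is expressed by endoderm alone. The defining markers Sox17 (4.75, 7.45 and 3.18, then 0, 2.49 and 2.52, -1.35 ± 0.60, adjusted p = 0.0884) and Cxcr4 (14.2, 12.8 and 11.7, then 6.37, 7.48 and 8.81, -0.71 ± 0.36, adjusted p = 0.148) were lower in each day-4 library than in each day-3 library but were not called, although Sox17 was past the threshold in fits of all 12 Dox or all 24 libraries. Sox17 was at -0.75 without EBd4 Dox 1. Epcam, an epithelial adhesion gene, was the one to fall (-0.12 ± 0.04), a call lost without EBd3 Dox 1, EBd3 Dox 2, EBd3 Dox 3 or EBd4 Dox 1, with a replicate block and in fits of all 12 Dox or all 24 libraries.

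Blood and endothelial genes were read on day 3 and were lower on day 4: 7 of 18 fell and 1 rose. Tek (ENSMUSG00000006386, chromosome 4, 94739289 to 94874976), the angiopoietin receptor gene, had the largest fall among genes whose higher group reached 5 CPM, from 42.7, 53.2 and 56.2 to 7.64, 4.98 and 2.52 (-3.18 ± 0.34, adjusted p = 1.33e-07). Pecam1, which stem cells express as well as endothelium, went from 161, 184 and 201 to 36.9, 49.8 and 57.9 (-1.91 ± 0.16, adjusted p = 2.03e-09). Etv2, a master gene of both lineages, fell from 47.2 ± 5.41 to 18.9 ± 5.30 (-1.31 ± 0.25) and Tie1 fell by 1.55 ± 0.32. Flt1, the VEGF receptor 1 gene, was the one to rise, from 73.6, 68.1 and 81.7 to 295, 340.2 and 205 (1.87 ± 0.14, adjusted p = 6.68e-10). The count of 7 became 4 with DESeq2 and 4 without EBd3 Dox 1. Inpp5d, a phosphatase gene best known from blood cells and a member of no list, fell from 191, 313 and 341 to 39.5, 39.9 and 44.1 (-2.70 ± 0.16, adjusted p = 1.67e-11).

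Neural genes did not rise as a group, with 2 of 20 up and 5 down, and the 5 became 2 with DESeq2 and 3 without EBd3 Dox 2, EBd3 Dox 3, EBd4 Dox 1 or EBd4 Dox 2. Tubb3, a tubulin gene of neurons, went from 698, 776 and 770.4 to 196, 152 and 152 (-2.17 ± 0.09, adjusted p = 2.31e-14), and Pax6 from 248, 241 and 260 to 115, 106 and 131 (-1.09 ± 0.10, adjusted p = 2.51e-08). Nes, the intermediate filament gene of neural progenitors, rose from 1328 ± 73.0 to 2091 ± 116 (0.65 ± 0.05). Of 23 Hox genes 4 rose (17.4%, near the 16.8% of all genes) and none fell (median -0.14). Those that rose include Hoxb1 (from 20.9 ± 2.29 to 58.0 ± 15.8, 1.40 ± 0.23), Hoxb2 (2.13 ± 0.44) and Hoxb3 (1.97 ± 0.50). In the Notch list 7 of 20 rose and 5 fell. Hes1 rose from 225 ± 33.8 to 552 ± 26.2 (1.30 ± 0.09) and Notch3 by 0.90 ± 0.04, while the ligand gene Dll1 fell from 132 ± 5.56 to 60.01 ± 5.95 (-1.13 ± 0.14). The 5 falls became 3 with DESeq2 or without EBd3 Dox 3, and 2 without EBd3 Dox 2 or EBd4 Dox 2.

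Of 24 genes of the change from epithelium to mesenchyme, which cells undergo in the streak, 9 rose, 5 fell and 10 were not called (median 0.09). Zeb2, a repressor of E-cadherin, went from 49.9, 41.5 and 54.1 to 214, 168 and 165 (1.89 ± 0.15, adjusted p = 8.01e-10), and Vim, the mesenchymal filament gene, rose by 0.49 ± 0.08. Cdh2 (N-cadherin) went from 117 ± 13.3 to 169.8 ± 40.8 (0.52 ± 0.14), a call lost without EBd3 Dox 1 (0.43) or EBd4 Dox 1 (0.34). Cdh1 (E-cadherin) fell from 11505 ± 182 to 9797 ± 57.9 (-0.23 ± 0.03), and Snai1 was not called (0.18, adjusted p = 0.699). Cdh13 went from 3.56, 2.13 and 2.12 to 47.1, 49.8 and 40.3 (3.72 ± 0.35, adjusted p = 1.57e-08) and Pcdh7, a protocadherin gene, from 1.19, 1.06 and 2.12 to 25.5, 38.6 and 18.9 (3.51 ± 0.43, adjusted p = 8.21e-07). Both were near 0 on day 3. In the matrix, 11 of 37 laminin and integrin genes rose and 7 fell (median 0.01), and 11 of 41 collagen genes rose and 5 fell (median 0.12). Of the basement membrane genes Lamb1 (0.71 ± 0.04), Lama5 (0.55 ± 0.03), Col4a1 (0.61 ± 0.06) and Col4a2 (0.58 ± 0.09) rose, while Col18a1 went from 3917, 3984 and 4010.3 to 2922, 3209.7 and 3178 (-0.36 ± 0.04, adjusted p = 1.66e-07). Fn1 (fibronectin) fell from 3740.2 ± 95.1 to 2544 ± 59.3 (-0.56 ± 0.04).

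Axon guidance genes, whose semaphorins, netrins and ephrins also steer cells of the early embryo, rose in 22 of 46 cases and fell in 5. Slit3 went from 180.5, 181 and 179 to 564, 556 and 502 (1.58 ± 0.08, adjusted p = 4.70e-13), Ntn1 from 59.4, 75.6 and 57.3 to 189.7, 218 and 215 (1.69 ± 0.13, adjusted p = 7.73e-10), and the ephrin receptor gene Epha1 from 588, 619 and 651 to 1775, 1722 and 1441 (1.40 ± 0.06, adjusted p = 1.78e-13). The netrin receptor gene Dcc, low on day 3 (10.4 ± 3.52), fell to 0.415 ± 0.719, while its relative Unc5a rose by 1.40 ± 0.23.

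Chromatin regulators and imprinted genes divided. Of 31 Polycomb genes 11 rose and 9 fell: Ezh1, a relative of the methyltransferase Ezh2 that is also found in non-dividing cells, rose from 691 ± 90.0 to 1221 ± 167 (0.82 ± 0.08) and Phc2 by 1.04 ± 0.09, Ezh2 was not called (0.06), and Jarid2 fell by 0.32 ± 0.04. Of 27 imprinted genes 8 rose and 9 fell. Grb10 (ENSMUSG00000020176, chromosome 11, 11930508 to 12038683), a brake on growth factor signalling, went from 895, 1061 and 1068 to 228, 146 and 219 (-2.37 ± 0.11, adjusted p = 3.98e-13), and Mest fell by 1.18 ± 0.05, while H19 (0.97 ± 0.10) and Peg10 (0.90 ± 0.05) rose. Mycn fell by 0.64 ± 0.07 and Mycl rose by 0.99 ± 0.07. Brd2 RNA, the gene tagged in this line, was at 4128, 4551 and 4582 on day 3 and 3057, 3126 and 2862 on day 4 (-0.55 ± 0.04, adjusted p = 7.94e-10), so it fell with no auxin present. Brd3 was not called (0.06, adjusted p = 0.304).

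Several large families were called near or below the background. Of 381 genes named Zfp 69 rose and 62 fell (42 rose with DESeq2), of 58 histone genes 3 rose and 4 fell, and of 18 retinoic acid genes 4 rose and 3 fell. Within the Zfp family Zfp521, a progenitor factor, went from 36.8, 46.8 and 56.2 to 194, 192 and 176 (2.00 ± 0.15, adjusted p = 4.87e-10) and Zfp365 from 203, 284 and 314 to 64.9, 57.3 and 54.1 (-2.14 ± 0.14, adjusted p = 6.53e-11). Of the retinoic acid genes Dhrs3, which limits the making of retinoic acid, went from 87.9, 69.2 and 53.1 to 168, 207 and 164 (1.37 ± 0.15, adjusted p = 2.94e-07).

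Among the other large changes, Rtl8c, a gene derived from a retrotransposon, went from 11.9, 4.26 and 13.8 to 144, 132 and 85.6 (3.57 ± 0.31, adjusted p = 4.65e-09). Prox1, a homeobox gene of several organ buds, went from 34.4, 37.3 and 36.1 to 220.3, 223 and 252 (2.65 ± 0.13, adjusted p = 6.64e-13), Nrcam, a cell adhesion gene, from 51.1, 50.03 and 66.9 to 411, 345 and 311 (2.65 ± 0.13, adjusted p = 4.74e-13), and Olig1 from 115, 103 and 118 to 761, 682 and 628 (2.61 ± 0.09, adjusted p = 1.01e-15). Frem2, a basement membrane protein gene, went from 271, 221 and 248 to 1711, 1514 and 1270.3 (2.59 ± 0.09, adjusted p = 8.02e-16) and Lzts1 rose by 2.78 ± 0.13. Prox1, Nrcam and Frem2 kept their groups far apart in each library. Of the largest falls not yet given, Nlrp4f, of a family known from oocytes, went from 77.2, 87.3 and 95.5 to 12.7, 7.48 and 8.81 (-3.06 ± 0.25, adjusted p = 1.49e-09), and Aoah (an acyloxyacyl hydrolase gene, -2.69 ± 0.21), Slc35d3 (-2.57 ± 0.19), Ankrd35 (-2.36 ± 0.23), Pcnx2 (-2.33 ± 0.25) and Slc16a14 (-2.22 ± 0.25) fell. Usp17lb, one of a cluster of near-identical deubiquitinase genes, fell by 2.33 ± 0.26, with its reads uncertain for that reason.

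Set in the whole Dox course (mES cells, EBd2, EBd3, EBd4), most risers were at their highest on day 4. Of the 633 genes risen at least 2-fold, 519 (82.0%) had their highest mean in EBd4 Dox and 88 in mES cells, where 26.7% of all tested genes were highest in EBd4 Dox. Of the 1037 fallen at least 2-fold, 606 (58.4%) were highest in EBd2, 247 in mES cells and 184 in EBd3, where of all tested genes 29.6% were highest in EBd2, 30.1% in mES cells and 13.5% in EBd3. By construction no riser can be highest on day 3 and no faller on day 4. Choosing risers by a high day-4 mean also favours a peak on day 4, and choosing fallers favours an earlier one. The shares over all tested genes, which hold risers and fallers alike, are thus no like-for-like background. T was at 4.53, 3.47 and 3.72 normalized counts in mES cells and at 17.6, 10.4 and 10.05 on day 2, and so was low at each stage before day 4. Nanog was at 9598 ± 41.5 in mES cells and 526 ± 52.97 on day 2, so its rise to 4788 ± 108 on day 4 followed a low on day 2. Slc2a3 was also lowest on day 2 but highest on day 4, whereas Nanog was highest in mES cells (Slc2a3 in stage order 9367 ± 114, 2147 ± 41.5, 6699 ± 1027 and 14576 ± 2699.7). Dppa2 and Zscan4c peaked on day 2, at 1489 ± 14.04 and 156 ± 9.14, and so did Cdkn1a, at 3421 ± 529.9. Slc7a11 was highest on day 3.

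**Figure D4:**
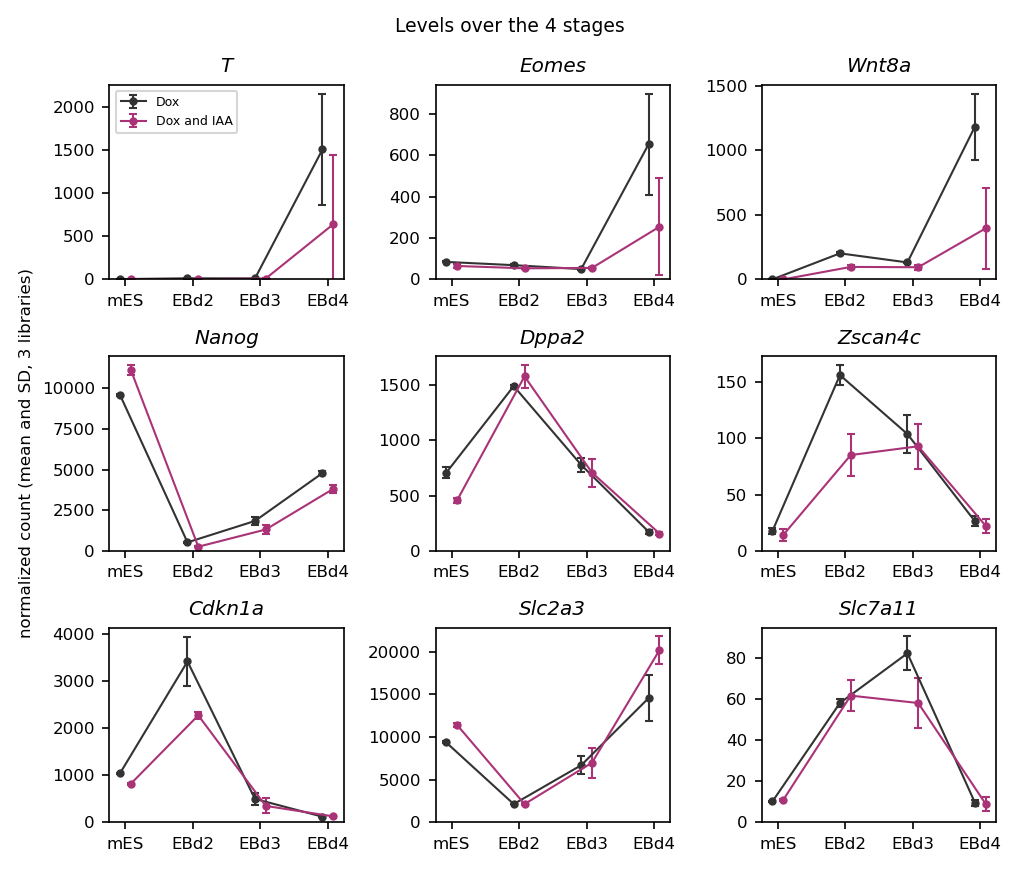
Normalized count (y axis, mean with SD of 3 libraries) of 9 genes over the 4 stages (x axis) in Dox (black) and in Dox and IAA libraries (purple). T, Eomes and Wnt8a are highest on day 4, Nanog and Slc2a3 are lowest on day 2 and rise to day 4, and Dppa2, Zscan4c and Cdkn1a peak on day 2 in Dox.

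The same day in the auxin-treated cultures gives a comparison that shares no library with this one. There 6679 of 21232 genes changed (31.5%), 3404 up (16.0%) and 3275 down (15.4%). Of 617 genes risen at least 2-fold in Dox and tested in both, 590 (95.6%) had a positive change with IAA, 366 were called in the same direction and 0 in the opposite one. Of 993 fallen at least 2-fold, 923 (93.0%) had a negative change, 484 were called in the same direction and 2 in the opposite one. Of all 20364 genes tested in both, 74.6% had the same sign, and Pearson's r across genes was 0.62, which is a description since genes are not replicates. Not every list fell again with IAA: 4 naive pluripotency genes rose and 4 fell (median 0.14), and 2 germline genes rose and 4 fell (median -0.32). Falls were called for 8 2-cell-like genes, 13 p53 targets and 14 integrated stress response genes, and rises for 0, 2 and 3. A call in 1 comparison alone is no test of a difference. The difference between the 2 day steps, tested itself, was past the threshold for 499 of 21388 genes (2.33%). That count was 196 without EBd4 Dox 1, 211 without EBd3 Dox 1, 251 without EBd3 IAA 1, 265 without EBd4 Dox 2, 267 without EBd4 IAA 2, 270 without EBd3 Dox 2 and 868 without EBd4 IAA 3.

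Of the 16 streak genes 15 had a smaller change with IAA than without. For 0 of them was the difference past the threshold (limma, adjusted p below 0.05, with 4 at an unadjusted p below 0.05). Genes risen at least 2-fold in Dox had a median of 1.40 in Dox and 1.08 with IAA. They were chosen by their change in Dox, which by itself favours a smaller change with IAA, so these medians show no general effect. The streak genes also moved together by library, so the 15 are not separate observations. Evx1 and Mixl1 were at 0.948 and 3.79 in EBd4 IAA 1 but at 105 and 126 in EBd4 IAA 3, above each EBd4 Dox library. T changed by 6.92 ± 0.25 in Dox and by 4.63 with IAA (difference -2.29 ± 0.95, adjusted p = 0.219), Eomes by 3.61 ± 0.18 and 1.71 (difference -1.89 ± 0.55, adjusted p = 0.0632), Foxa2 by 5.41 ± 0.33 and 2.55 (difference -2.85 ± 0.999, adjusted p = 0.134). On day 4 the IAA libraries spread widely, with T at 39.8, 322 and 1556, so that such a difference was not detectable at this spread. Porcn rose in Dox and was at 0.02 with IAA (difference -1.11 ± 0.16, adjusted p = 0.000477), and Axin2 rose less (1.03, difference -0.81 ± 0.21, adjusted p = 0.0419). Fgf4 (-1.26, difference 0.85 ± 0.22, adjusted p = 0.0403) and Dnmt3l (-1.15, difference 0.61 ± 0.15, adjusted p = 0.0313) fell less with IAA, and Ddx4 and Dmrt1, fallen in Dox, were at 0.03 and 0.08. By contrast the fall of Dppa2 (-2.15), Zscan4c (-2.02), Plk2 (-2.31) and Slc7a11 (-2.60) and the rise of Slc2a3 (1.56) and Ndrg1 (2.18) were called in both comparisons.

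**Figure D5:**
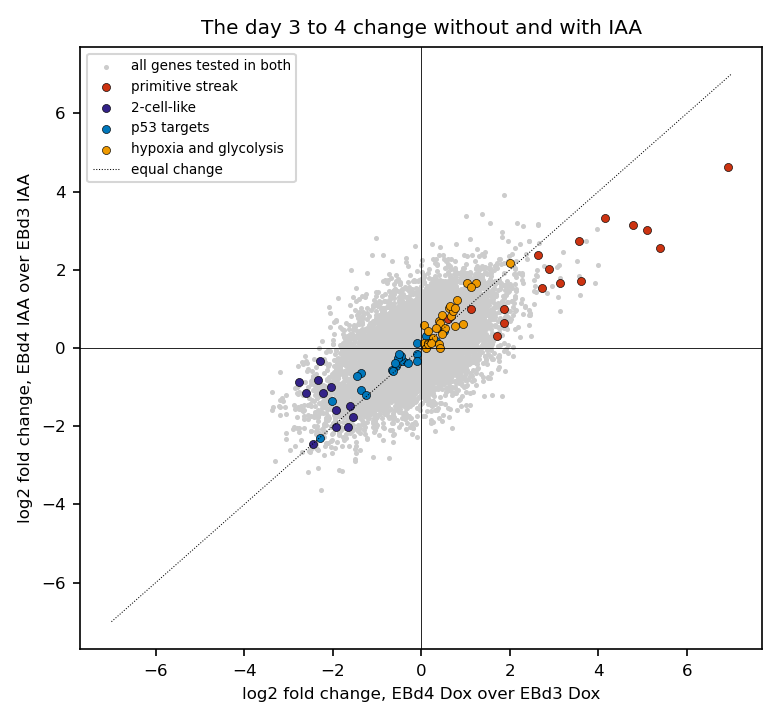
Log2 fold change of day 4 over day 3 in the IAA libraries (y axis) against that in the Dox libraries (x axis) for the 20364 genes tested in both (grey), with members of 4 lists in colour and a dotted line of equal change. Most streak genes lie below the line, and most p53 targets and glycolysis genes lie near it.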

How the data were processed

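Total RNA was isolated with TRIzol and sequenced with Illumina protocols, per the labels' protocols. Per the submitters' processing notes, STAR 2.5.3a (genome build mm10), featureCounts 1.5.2 and DESeq2 were used; strandedness and the DESeq2 version are not given in the sources used here. The deposited values are a normalized signal: the authors divided each gene's read count by 1 size factor per library. Multiplying by that factor gave back whole reads for 100% of values, within a relative tolerance of 1e-06. Rows with no gene symbol (14339 of 35742) stayed in the fits under their IDs.

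Groups came from the sample titles. Genes with a mean of at least 1 over the 6 libraries were tested with limma 3.58.1 (trend) in R 4.3.3 on log2(value + 1), with Benjamini-Hochberg adjustment over all genes tested and a threshold of 0.05. The difference between the day steps with and without IAA was the interaction term of the same kind of fit over 12 libraries. The fit was also run on simulated counts, drawn independently for each gene and library. That run does not cover genes that move together by library, and its outcome is not reported here. On the recovered reads edgeR 4.0.16 (quasi-likelihood) called 7122 genes and DESeq2 1.42.0 called 5113. Other constants, filters, scalings, sets of libraries, a replicate block and leaving out each library were also tried.

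The members and gene lists were chosen with earlier results of these data known, so list counts are descriptions. Genes named were the 15 largest changes each way among called genes whose higher group reached 5 CPM and whose groups did not overlap (leaving out Gm genes, Rik clones, pseudogenes and IDs without a symbol), any member of a list given by symbols, and the 4 members with the smallest adjusted p of a list given by a name pattern. Some genes chosen in this way are not reported here. Promoter letters are from RefSeq on GRCm38.p6 and positions from GENCODE M21, which holds 35652 of the 35742 IDs.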

Additional observations from a re-analysis of the deposited data

Results flagged for a closer look

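For 37 of the genes named above, the change from day 3 to day 4 differed between the libraries with and without IAA by a test of the difference itself (limma interaction over 12 libraries, adjusted p below 0.05, 3 libraries a group). The values below are the log2 change with IAA minus that without it. Over all genes 499 passed this test, and the count ran from 196 to 868 when 1 library was left out, so single genes near the threshold depend on the libraries used. No explanation of these differences was tested.

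Among genes that fell without IAA, most had a positive difference, that is, a smaller fall or none. The change without IAA was used to name and group these genes and is also part of the difference. Such a choice favours positive differences among fallen genes and negative ones among risen genes, so the share of signs is no result in itself. In the pluripotency lists these were Fgf4 (0.85), Fbxo15 (1.25), Zfp42 (0.72) and Utf1 (0.54), with Gdf3 (0.75) and Dnmt3l (0.61) beside them. The germline genes were Tex19.1 (0.88), Mael (0.73), Sycp3 (0.93), Dmrt1 (1.08) and Ddx4 (0.81). Dll1 (1.27), Pax6 (0.81), Fzd7 (0.47), Col18a1 (0.41) and Fn1 (0.54) also differed. Fgfr2 (1.17), Mcl1 (0.67) and Lefty1 (0.66) fell without IAA and rose with it. Etv4 (-0.86), Spry4 (-1.06) and Pou5f1 (-0.31) fell further with IAA.

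Among genes that rose without IAA, the difference was negative for Trh (-1.10), Porcn (-1.11), Epha1 (-0.87), Axin2 (-0.81), Olig1 (-0.77), Frem2 (-0.72), Vim (-0.66), Fgf5 (-0.57), Col4a1 (-0.39) and Eno1 (-0.31). It was positive, a larger rise with IAA, for Fos (2.06), Krt18 (0.79), H19 (0.73) and Lamb1 (0.26). P4ha2 was not called without IAA and rose with it (difference 0.53).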

How the results depend on the processing

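The number of genes changed between the days was 7072 and ranged from 5610 to 6590 when 1 library was left out, with 5113 by DESeq2 and 7122 by edgeR. Counts of genes changed at least 2-fold depended on low genes: with a constant of 5 under the log 384 rose and 591 fell, where the constant itself shrinks their fold changes, and with a mean of at least 10 as the filter 564 fell, since fewer genes are tested. By DESeq2 603 fell, and the cause was not tested. The step with IAA had 5242 to 6288 changed genes with 1 library left out. The number of genes whose step differed between the treatments was 1109 in a fit of all 24 libraries and ran from 196 to 868 with 1 library left out, the cause not tested.

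Of the genes named above 207 were followed under the alternatives, and not all markers given only as levels were among them. Of the 207, 196 were called, and 189 of these kept their call under each alternative tried. The other 7 (Cdx1, Cdx2, Cdh2, Epcam, Fzd5, Mesp1 and Rec8) lost it under some and none changed sign. Of those among the 207 not called, 3 changed sign when 1 library was left out: Snai1 ran from -0.021 to 0.57, Egln3 from -0.077 to 0.28 and P4ha2 from -0.0011 to 0.17. The lowest values were without EBd4 Dox 1 for Snai1 and without EBd4 Dox 2 for Egln3 and P4ha2. With a replicate block 6585 genes were called. Same-numbered libraries did not deviate together (correlations of -0.069, -0.016 and -0.045 over 14470 genes, none the best of its library). No pairing by number was seen, but 3 libraries a group cannot show that there was none. Every day-3 library was deeper than every day-4 library, which limits statements about genes with a few reads.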
